A study of Danio rerio with 20 samples.

Results

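In whole zebrafish larvae, 218 of the 57775 transcripts in the deposited tables stood apart from untreated larvae under the Ion treatment and were only unevenly matched in larvae given nanosheets of lithium cobalt oxide (LCO). Of these, 181 were rises and 37 were falls. A member had a mean of at least 1 TPM over 20 libraries (kallisto's abundance corrected for transcript length and scaled to 1 fixed total per library), had all 5 Ion libraries above or all 5 below all 5 untreated libraries, and had a log2 ratio of the Ion mean to the untreated mean of at least 0.5 in size. In addition, at least 1 of the 10 LCO libraries was not on that side of all 5 untreated libraries. The limit of 300 members was not reached. The members were thus chosen by their measured TPM in every library, and the values against untreated larvae are given as a description with no test.

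The Ion, LCO 10 mg/L, LCO 1 mg/L and untreated groups held 5 libraries each, made from total RNA of pools of 20 larvae. All larvae were wild type (strain WT), were fed from day 5 and were 10 days post-fertilization; the exposed groups had spent 48 hours in their treatment. The labels state neither which ions the Ion treatment held nor their dose, and they do not say whether pools shared parents or tanks, so the p-values reflect spread among pools only. LCO is a cathode material of lithium-ion batteries. In water its sheets can give off lithium and cobalt ions, and an ion exposure is the usual way to ask how much of a response to such a material also appears without the particle. Dissolved cobalt is known to stabilise hypoxia-inducible factors in animal cells, and lithium is known to inhibit glycogen synthase kinase 3, a regulator of Wnt signalling. None of the 57775 identifiers matched the gene tables used here (0 matches), so no transcript is given a gene name, no marker of a cell type or pathway was read, and members are named by their Ensembl transcript identifiers.

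Library totals ran from 24950529 to 63120039 estimated counts. In LCO 10 mg/L replicates 2 and 3 a single transcript that is no member, ENSDART00000182970.1, took 25.1% and 8.26% of all TPM. In the other 18 libraries the most abundant transcript took at most 4.20%. That highest share was the same transcript in untreated replicate 4, and it also led LCO 1 mg/L replicate 2, at 1.89%. Because TPM sum to a fixed total, the other transcripts divide a smaller remainder where that transcript is high. All members were therefore also read on TPM divided by a trimmed-mean (TMM) factor per library, here called rescaled TPM. That factor was 0.688 and 0.914 in LCO 10 mg/L replicates 2 and 3 and 0.955 to 1.101 elsewhere. It was 1.035 to 1.079 in Ion and 0.955 to 1.054 in untreated libraries. The scale thus also bears on the contrast that chose the members. Over the 28682 transcripts with a mean of at least 1 TPM, the median log2 ratio of Ion to untreated was 0.10 on TPM and 0.005 on rescaled TPM. On the first principal component, computed with the members left out, 8 libraries scored above 0 and stood apart from the other 12. This component held 14.7% of the variance. The 8 scored at least 20.9 and the others at most -21.2, and the same 8 were above 0 with the members included. The libraries apart were replicates 4 and 6 of Ion, replicates 2, 3, 4 and 6 of LCO 10 mg/L, and the first pair of LCO 1 mg/L (replicates 1 and 2). No untreated library was among those apart (0 of 5), and the labels name no batch. The gap between transcript length and effective length, which follows fragment length, also differed, at 158 ± 6.06 bases in Ion, 162 ± 3.6 bases in LCO 10 mg/L, 161 ± 4.39 bases in LCO 1 mg/L and 152 ± 5.98 bases in untreated libraries (SD, n = 5 each), and its part in the members' values was not tested. In bulk RNA, fewer cells of a type and less RNA per cell cannot be told apart, and a transcript can also change because reads moved between transcripts of 1 gene.

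The rises were mostly small changes in scarce transcripts. Their median log2 ratio of Ion to untreated was 0.60 (quartiles 0.55 and 0.69, highest 4.24), and 164 of 181 were under 2-fold. The median level over all libraries was 2.78 TPM (1.01 to 113 TPM), against 4.88 TPM for the 28682 transcripts with a mean of at least 1 TPM, and 136 of the rises were under 5 TPM. Their median length of 1775 bases (207 to 16194 bases) lay beside 1818 bases for all 28682. Over those 28682 transcripts, 4.23% had all 5 Ion libraries above all 5 untreated (1212 transcripts), and 190 of these also reached the log2 ratio of 0.5. The 9 of the 190 that are not members had all 10 LCO libraries above all 5 untreated as well. The count called under Ion therefore describes how the rises were chosen and nothing more.

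**Figure D1:**
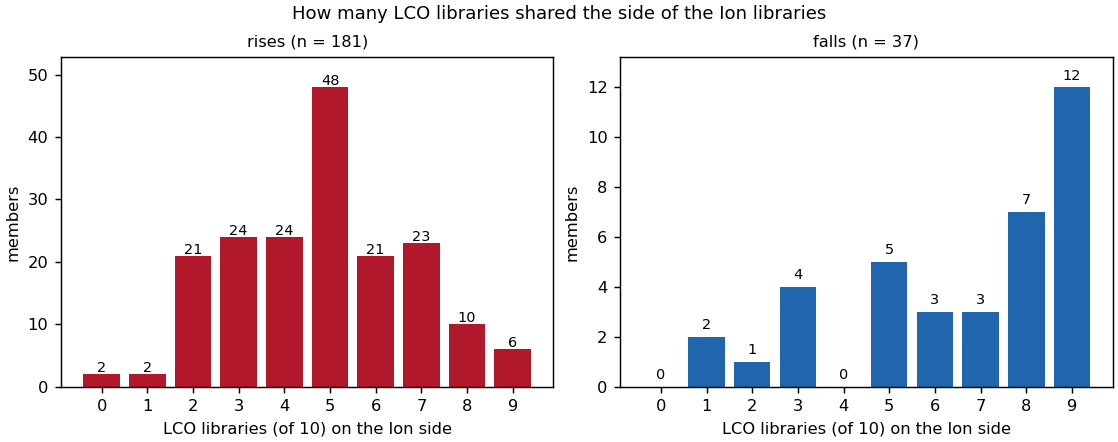
Number of members (vertical axis) by how many of the 10 LCO libraries lay on the side of the Ion libraries, beyond all 5 untreated (horizontal axis), for rises (left) and falls (right). Rises peak at 5 of 10 libraries with 48 members, whereas 12 of the 37 falls sit at 9 of 10, the most the rule allows.

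How many LCO libraries joined the Ion side varied from member to member. Among the rises the median was 5 of 10 LCO libraries. No LCO library lay above the untreated range in 2 rises, and 9 of 10 did in 6 rises. Of the 181, 87 had at least 1 LCO library on the opposite side, below all 5 untreated, as 84.4% of all 28682 transcripts did. On rescaled TPM 89 did, against 65.8% of all. At group level the rises averaged more under Ion than under LCO, with a median log2 ratio to untreated of 0.60 for Ion, 0.26 for LCO 10 mg/L and 0.37 for LCO 1 mg/L. The choice of members favours that order, since it sets a minimum for the Ion ratio and none for LCO. All 3 ratios share the same 5 untreated libraries, so they are not independent of each other. Over the 28682 transcripts the medians were 0.10 for Ion, -0.06 for LCO 10 mg/L and 0.10 for LCO 1 mg/L.

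Within each dose, the libraries differed in how many rises they held above the untreated range. At 1 mg/L, replicates 1 and 2 were above all 5 untreated in 156 and 160 of the 181 rises, where 44.6% and 46.4% of all 28682 transcripts were. Replicates 3, 5 and 6 were above in 60, 44 and 24 rises, against 23.1%, 23.9% and 22.0% of all. As shares of the 181 rises, replicates 1 and 2 had 86.2% and 88.4%. Of all 1212 transcripts with every Ion library above every untreated one, at any ratio, 94.6% and 94.3% were above in these replicates. In replicates 3, 5 and 6, 61.1%, 51.7% and 35.6% of those 1212 were above, so the split was also present there. In 79 rises replicates 1 and 2 were both above the untreated range and none of the other 3 was, while the converse occurred in 0 rises. Replicates 1 and 2 were the highest of the 5 LCO 1 mg/L libraries in 130 rises. The shares of all 28682 transcripts with these patterns were not counted, so the counts are not read as particular to the members. LCO 1 mg/L replicates 1 and 2 are the 2 libraries of that dose that stood apart on the first component. Without all 8 libraries apart, a setting taken from earlier results of these data, the median log2 ratio of LCO 1 mg/L to untreated was 0.01 in place of 0.37, and without LCO 1 mg/L replicate 2 alone it was 0.20. The part of that separation in the members' values was not tested.

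At 10 mg/L, replicate 6 was above the untreated range in 138 rises and was the highest of its group in 102. The share of all transcripts that were highest in that library was not counted. Replicates 1, 3 and 4 were above in 81, 81 and 90 rises, and replicate 2 in 39. The shares over all 28682 transcripts were 41.0% in replicate 6, 27.2%, 12.7% and 22.1% in replicates 1, 3 and 4, and 2.31% in replicate 2. On rescaled TPM, replicate 2 turned from the lowest library of its dose into the highest, with 146 rises above the untreated range against 30.7% of all transcripts, and replicate 3 had 112 against 25.2%. Rescaling left replicates 1, 4 and 6 at 69, 90 and 111 rises, against 23.5%, 24.5% and 27.5% of all. The LCO 1 mg/L libraries changed little, with 141, 151, 58, 46 and 30 rescaled rises above in replicates 1, 2, 3, 5 and 6, against 30.1%, 35.5%, 24.5%, 28.4% and 26.0% of all. The Ion libraries showed a difference among themselves as well: replicates 4 and 6, which also stood apart on the first component, were the 2 highest Ion libraries in 97 of the 181 rises. The share of all transcripts with that order was not counted either.

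**Figure D2:**
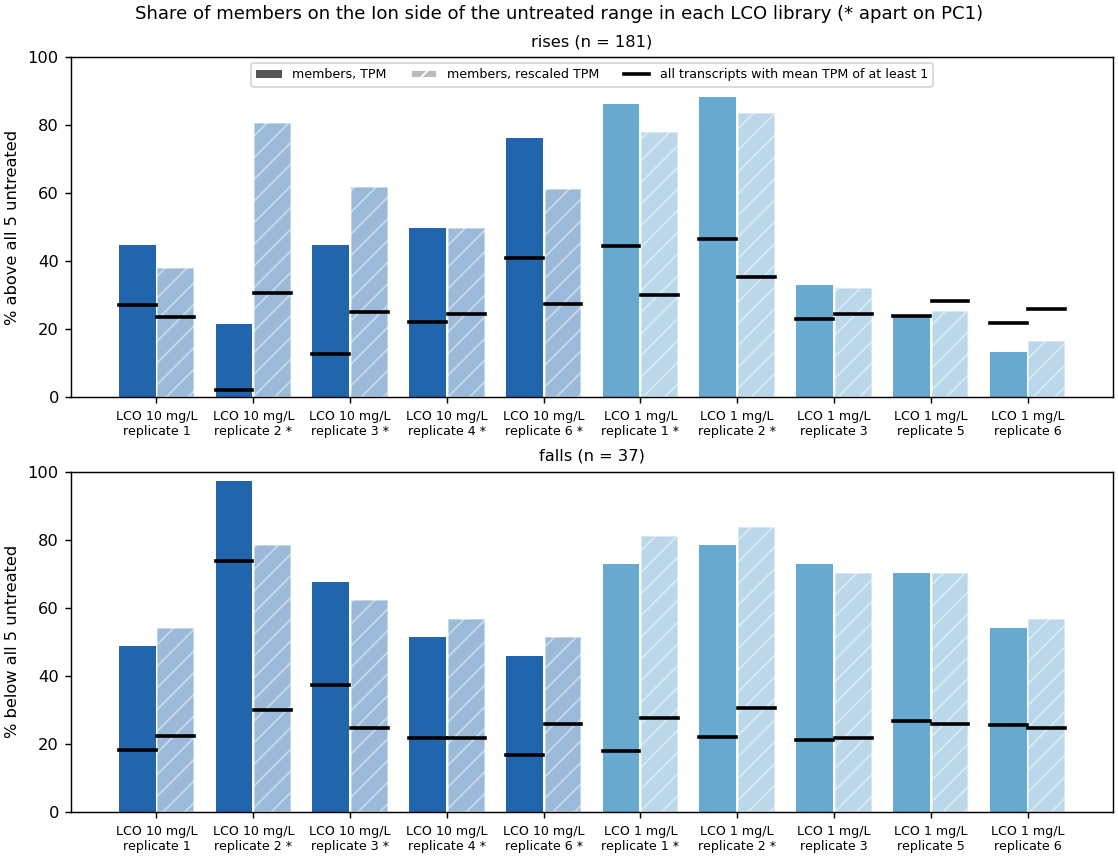
Share of members (percent, vertical axis) beyond all 5 untreated libraries on the Ion side in each LCO library, on TPM (solid bars) and rescaled TPM (hatched bars), with the same share over all 28682 transcripts as a black line; asterisks mark libraries apart on the first component. LCO 1 mg/L replicates 1 and 2 held 156 and 160 of the 181 rises, replicate 6 of that dose held 24, and LCO 10 mg/L replicate 2 held 39 on TPM and 146 on rescaled TPM.

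The median over the rises of log2 TPM over the untreated mean gives the same libraries as levels. It was 0.47, 0.51, 0.50, 0.75 and 0.83 in Ion replicates 1, 2, 3, 4 and 6. In LCO 10 mg/L replicates 1, 2, 3, 4 and 6 it was 0.22, 0.02, 0.20, 0.21 and 0.51, and in LCO 1 mg/L replicates 1, 2, 3, 5 and 6 it was 0.66, 0.85, 0.12, 0.02 and -0.12. Thus LCO 1 mg/L replicates 1 and 2 and LCO 10 mg/L replicate 6 reached the range of the Ion libraries. The other 3 libraries of LCO 1 mg/L lay around the untreated level. On rescaled TPM, LCO 10 mg/L replicate 2 was at 0.55, inside the Ion range of 0.39 to 0.72, and replicate 6 was just below it at 0.38. The group medians then became 0.50 for Ion, 0.36 for LCO 10 mg/L and 0.30 for LCO 1 mg/L. The order of the 2 doses among the rises thus turned round with the scale, and a difference between doses in this median is not called. Within groups the rises varied most at 1 mg/L, with a median coefficient of variation of 17.1% in Ion, 22.5% in LCO 10 mg/L, 34.7% in LCO 1 mg/L and 15.3% in untreated libraries, against 13.2%, 21.4%, 16.9% and 12.3% over all 28682 transcripts. The rule itself favours more spread in LCO than in Ion or untreated libraries. It keeps Ion and untreated libraries from overlapping and needs at least 1 LCO library off the Ion side. Its wording treats the 2 doses alike, but its last condition did not fall equally on the libraries. Of the 1212 transcripts with every Ion library above every untreated one, LCO 10 mg/L replicate 2 was above in 7.26%. LCO 1 mg/L replicates 1 and 2 were above in 94.6% and 94.3%. The coefficients of variation were taken on TPM as deposited, not on rescaled TPM.

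**Figure D3:**
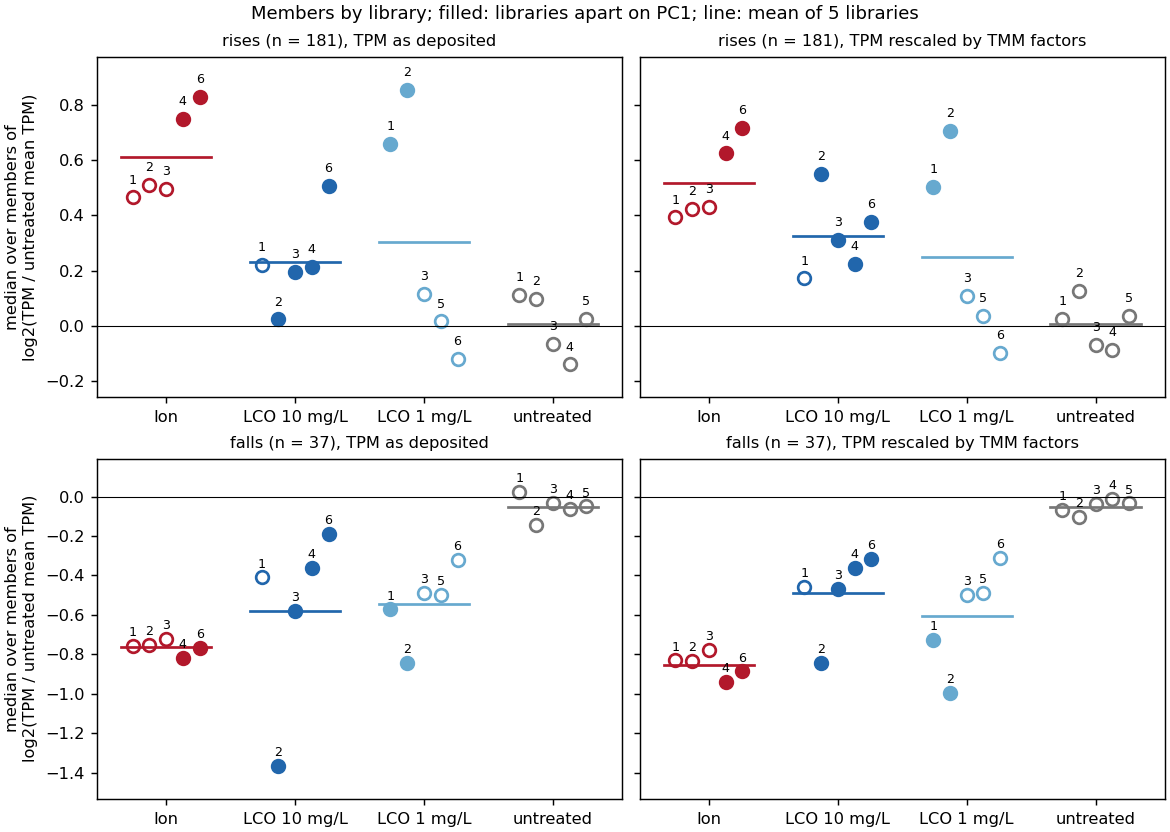
Median over members of log2 TPM over the untreated mean (vertical axis) in each library, for rises (top) and falls (bottom), on TPM as deposited (left) and rescaled TPM (right); numbers are replicates, filled points are libraries apart on the first component and lines are means of 5 libraries. Among rises on TPM, LCO 1 mg/L replicates 1 and 2 (0.66 and 0.85) and LCO 10 mg/L replicate 6 (0.51) lie with the Ion libraries. LCO 10 mg/L replicate 2 is at 0.02 on TPM and 0.55 on rescaled TPM.

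Membership itself moved with the scale. Of all 28682 transcripts, 1212 had every Ion library above every untreated one on TPM and 482 on rescaled TPM. The counts below were 246 and 587. On rescaled TPM, 107 of the 181 rises still had all 5 Ion libraries above all 5 untreated, as 1.68% of all 28682 transcripts did, and so did 36 of the 37 falls on the lower side, as 2.05% did. Applied to rescaled TPM, the rule would take 66 rises and 78 falls, of which 64 and 34 are members here. This setting was chosen after seeing the data. Among the 107 rises that held on both scales, the rescaled median log2 ratios were 0.54 for Ion, 0.38 for LCO 10 mg/L and 0.33 for LCO 1 mg/L.

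**Figure D4:**
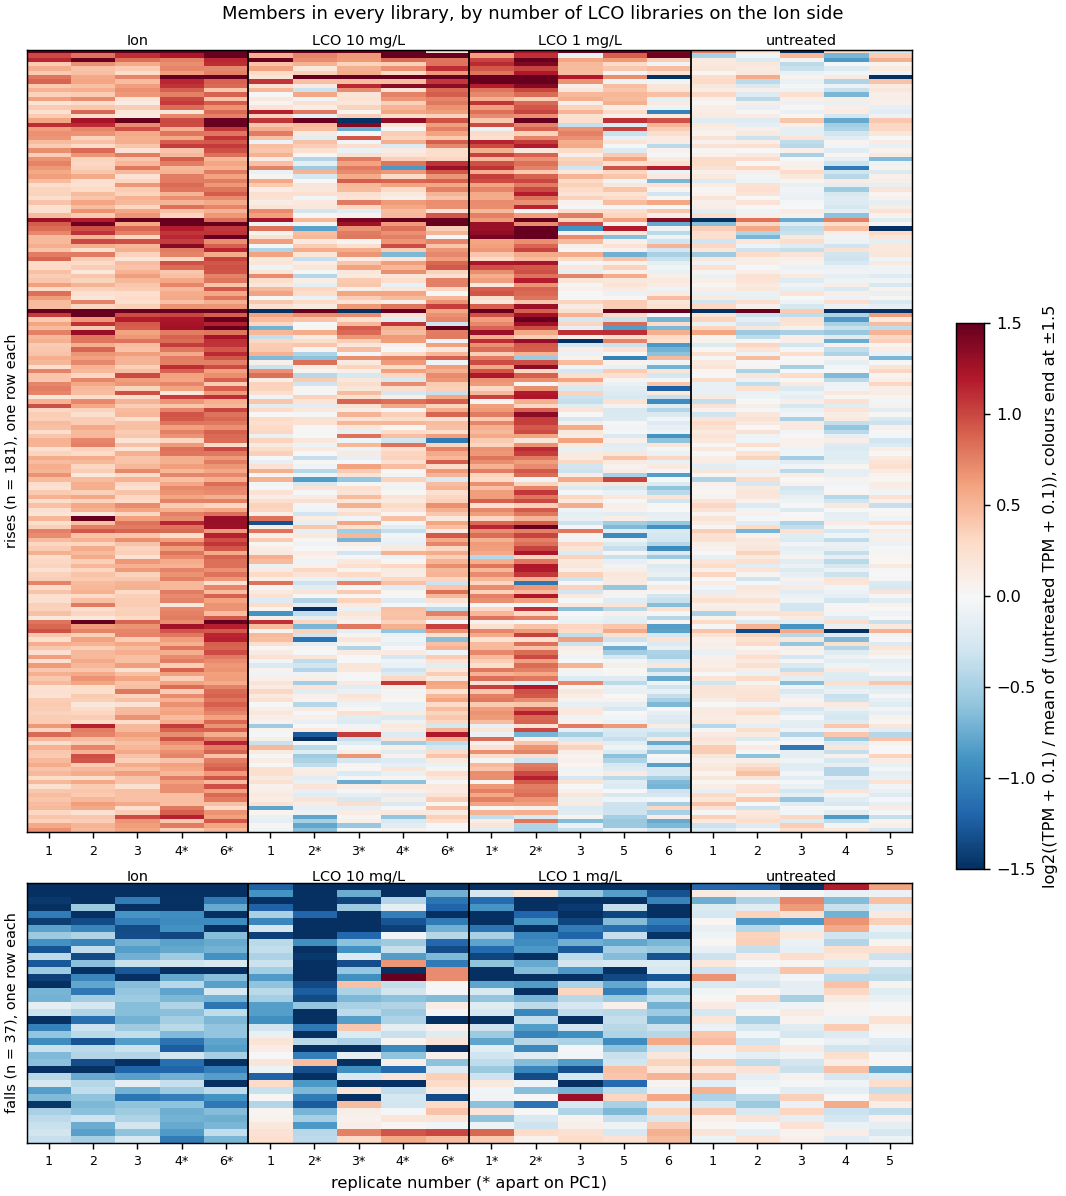
Each row is 1 member and each column 1 library, with replicate numbers below and asterisks at libraries apart on the first component; colour is log2 of TPM plus 0.1 over the mean of untreated TPM plus 0.1, ending at 1.5 in either direction. Rises (n = 181, top) and falls (n = 37, bottom) are ordered by the number of LCO libraries on the Ion side, and columns LCO 1 mg/L replicates 1 and 2 are red across most rises while replicates 3, 5 and 6 are pale or blue.

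The largest rise was ENSDART00000174522.2, a short transcript of 279 bases. It had 12.4, 41.0, 13.8, 5.99 and 22.8 TPM in the Ion libraries, 29.6, 9.69, 4.09, 8.09 and 1.177 TPM at LCO 10 mg/L, 6.21, 2.53, 8.81, 4.88 and 2.90 TPM at LCO 1 mg/L, and 1.79, 1.184, 0, 1.28 and 0.836 TPM in untreated libraries (replicates in rising number). Only LCO 10 mg/L replicate 6 lay inside the untreated range, and the log2 ratios to untreated were 4.24 for Ion, 3.37 for LCO 10 mg/L and 2.32 for LCO 1 mg/L. Its estimated counts ran from 0 to 175 per library, so single libraries rest on few reads.

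ENSDART00000174325.2 was the next largest, with a log2 ratio of 3.08 under Ion. It had 3.77, 1.68, 2.74, 1.39 and 2.76 TPM in Ion libraries, 0, 1.07, 0, 1.97 and 0.493 TPM at LCO 10 mg/L, 1.14, 0.632, 0.363, 1.501 and 2.34 TPM at LCO 1 mg/L, and 0, 1.05, 0.416, 0 and 0 TPM in untreated libraries. The Ion libraries cleared the highest untreated library, whereas LCO libraries of both doses fell on either side of it. ENSDART00000151242.2, ENSDART00000028062.10 and ENSDART00000181922.1 followed, with Ion log2 ratios of 1.45, 1.42 and 1.41, LCO 10 mg/L ratios of 1.54, 0.97 and 1.59 and LCO 1 mg/L ratios of 1.11, 0.66 and 0.98. On rescaled TPM the Ion libraries of ENSDART00000151242.2 overlapped with the untreated ones. In ENSDART00000181922.1, 9 of 10 LCO libraries lay above all untreated, and LCO 1 mg/L replicate 3, at 0.589 TPM, did not.

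The most abundant rise was ENSDART00000136234.3 (3853 bases). It had 132, 127, 99.3, 146 and 131 TPM in Ion libraries, 88.0, 72.7, 126, 105 and 135 TPM at LCO 10 mg/L, 177, 159, 122, 114 and 94.1 TPM at LCO 1 mg/L, and 95.0, 83.5, 95.4, 64.1 and 90.7 TPM in untreated libraries. The highest values of all 20 were in LCO 1 mg/L replicates 1 and 2, above every Ion library, and LCO 10 mg/L replicates 1 and 2 lay among the untreated. On TPM 7 of the 10 LCO libraries were above all untreated, and on rescaled TPM 9 of the 10 were. ENSDART00000180344.1, a transcript of 207 bases, averaged 77.7 ± 11.4 TPM in Ion, 59.7 ± 9.15 TPM in LCO 10 mg/L, 69.3 ± 22.7 TPM in LCO 1 mg/L and 54.5 ± 6.98 TPM in untreated libraries (SD, n = 5 each). LCO 1 mg/L replicates 1 and 2 were again the highest of their dose, at 84.1 and 101 TPM, and on rescaled TPM its Ion and untreated libraries overlapped.

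ENSDART00000113789.2 set Ion apart from nearly all LCO libraries. It had 46.1, 80.0, 48.4, 42.7 and 74.1 TPM under Ion, 56.4, 32.8, 27.4, 33.6 and 25.7 TPM at LCO 10 mg/L, 27.5, 26.4, 24.4, 23.3 and 27.0 TPM at LCO 1 mg/L, and 32.4, 22.8, 23.8, 31.8 and 20.9 TPM untreated. All LCO 1 mg/L libraries lay inside the untreated range, and at 10 mg/L replicate 1 alone reached the Ion range. The Ion mean of 58.3 ± 17.4 TPM compares with 35.2 ± 12.3 TPM at LCO 10 mg/L, 25.7 ± 1.77 TPM at LCO 1 mg/L and 26.3 ± 5.37 TPM untreated (SD, n = 5 each).

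In 2 rises no LCO library joined the Ion side (0 of 10). ENSDART00000055380.6 had 20.0, 19.0, 20.5, 22.8 and 20.0 TPM in Ion libraries, 13.5, 7.68, 8.94, 11.9 and 13.1 TPM at LCO 10 mg/L, 15.3, 9.72, 12.6, 8.98 and 8.31 TPM at LCO 1 mg/L, and 10.7, 11.6, 17.2, 12.9 and 14.1 TPM in untreated libraries. Every Ion library was above all 15 others, and 5 LCO libraries were below all untreated. ENSDART00000168321.2 averaged 11.1 ± 0.989 TPM in Ion, 7.11 ± 1.22 TPM in LCO 10 mg/L, 6.37 ± 0.646 TPM in LCO 1 mg/L and 7.69 ± 1.16 TPM in untreated libraries (SD, n = 5 each). Its lowest Ion library, at 9.81 TPM, was above its highest untreated library, at 9.03 TPM, but not on rescaled TPM. The rise with the widest gap between doses in libraries on the Ion side besides ENSDART00000113789.2 was ENSDART00000133642.4, where 3 libraries of LCO 10 mg/L and 0 of LCO 1 mg/L were above all untreated.

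**Figure D5:**
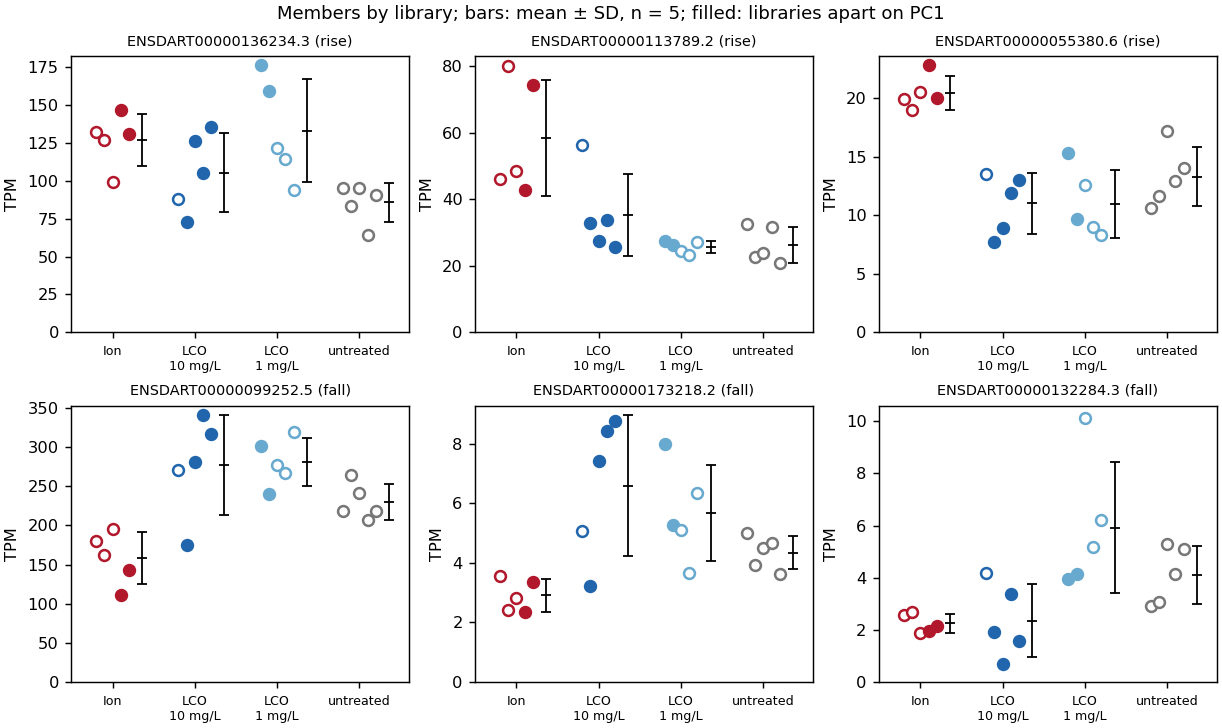
TPM (vertical axis) in each library of 3 rises (top) and 3 falls (bottom) by group, with bars for mean ± SD (n = 5) and filled points for libraries apart on the first component. In ENSDART00000055380.6 all Ion libraries (19.0 to 22.8 TPM) lie above all others, and in ENSDART00000173218.2 the Ion libraries (2.36 to 3.57 TPM) lie below the untreated range while 8 LCO libraries lie above it.

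On TPM as deposited the falls were fewer than the rises, and larger. On rescaled TPM they would not be fewer, as the rule would take 66 rises and 78 falls. Their median log2 ratio of Ion to untreated was -0.83 (-2.63 to -0.50), and 12 of 37 reached 2-fold. They had a median level of 3.65 TPM (1.01 to 237 TPM) and a median length of 1104 bases (397 to 3256 bases), shorter than the 1818 bases over all 28682 transcripts. All 5 Ion libraries were below all 5 untreated in 0.858% of all 28682 (246 transcripts), and 90 of these reached the log2 ratio. Of the 90, 53 had all 10 LCO libraries below the untreated range too and are not members. Even among the 37 members, the median number of LCO libraries on the Ion side was 8 of 10. At least 1 LCO library lay above all untreated in 16 falls and in 72.4% of all 28682 transcripts, and on rescaled TPM in 13 falls and in 69.1% of all.

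By group, the median log2 ratio of the falls to untreated was -0.55 for LCO 10 mg/L and -0.49 for LCO 1 mg/L, and -0.92, -0.51 and -0.56 for Ion, LCO 10 mg/L and LCO 1 mg/L on rescaled TPM. Here too the order of the doses turned with the scale. Without LCO 10 mg/L replicates 2 and 3, a setting chosen after seeing the data, the median for LCO 10 mg/L was -0.29. Replicate 2 was the lowest LCO 10 mg/L library in 28 falls, and the share of all transcripts lowest there was not counted. It was below all untreated in 36 of 37 falls, in a library where 73.8% of all 28682 transcripts were below. After rescaling these became 29 of 37 and 30.1%. The other LCO 10 mg/L libraries, replicates 1, 3, 4 and 6, had 18, 25, 19 and 17 falls below the untreated range, against 18.3%, 37.2%, 21.7% and 16.6% of all. The LCO 1 mg/L libraries were more alike than among the rises, with 27, 29, 27, 26 and 20 falls in replicates 1, 2, 3, 5 and 6, against 18.0%, 22.0%, 21.0%, 26.8% and 25.5% of all. On rescaled TPM, LCO 10 mg/L replicates 1, 3, 4 and 6 had 20, 23, 21 and 19 falls below, against 22.4%, 24.7%, 21.7% and 25.7% of all. LCO 1 mg/L replicates 1, 2, 3, 5 and 6 then had 30, 31, 26, 26 and 21, against 27.6%, 30.6%, 21.8%, 25.7% and 24.6% of all.

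The falls of greatest fold were in scarce transcripts. ENSDART00000109181.4 had 0.867, 0.809, 2.68, 3.23 and 0.889 TPM in Ion libraries, 4.44, 0.899, 2.11, 1.31 and 1.24 TPM at LCO 10 mg/L, 0, 1.82, 0, 2.30 and 2.52 TPM at LCO 1 mg/L, and 4.56, 4.54, 3.596, 23.7 and 15.9 TPM untreated. Its log2 ratio of -2.63 leans on untreated replicates 4 and 5, and only LCO 10 mg/L replicate 1 was not below the untreated range. ENSDART00000160661.2 had 1.26, 1.33, 0.111, 0.924 and 1.504 TPM in Ion libraries, 2.34, 1.43, 2.60, 0.00443 and 2.65 TPM at LCO 10 mg/L, 3.71, 5.03, 2.93, 2.45 and 1.73 TPM at LCO 1 mg/L, and 4.87, 4.62, 4.37, 4.13 and 4.16 TPM untreated. All LCO libraries but 1 lay below the untreated range, and LCO 1 mg/L replicate 2 exceeded every untreated library. ENSDART00000192216.1, ENSDART00000191101.1 and ENSDART00000145306.3 had Ion log2 ratios of -2.01, -1.67 and -1.60, LCO 10 mg/L ratios of -0.60, -0.24 and -0.66, and LCO 1 mg/L ratios of -1.09, -0.32 and -0.31.

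In the 3 most abundant falls, the LCO means lay near or above the untreated mean. ENSDART00000099252.5, the most abundant member of all, had 181, 162, 195, 111 and 143 TPM in Ion libraries, 271, 175, 281, 342 and 317 TPM at LCO 10 mg/L, 301, 241, 278, 267 and 320 TPM at LCO 1 mg/L, and 219, 264, 241, 207 and 219 TPM untreated. Every Ion library was below the untreated range, and 8 LCO libraries were above it. Of the LCO libraries only LCO 10 mg/L replicate 2 was below that range, and on rescaled TPM 0 of the 10 were. The group means of ENSDART00000099252.5 were 158 ± 32.9, 277 ± 63.7, 281 ± 30.6 and 230 ± 23.0 TPM in the same order (SD, n = 5 each). ENSDART00000143906.3 and ENSDART00000004533.8 had Ion means of 31.3 ± 5.26 and 20.2 ± 1.34 TPM, LCO 10 mg/L means of 43.3 ± 10.4 and 30.9 ± 8.03 TPM, LCO 1 mg/L means of 46.4 ± 8.50 and 29.2 ± 8.30 TPM, and untreated means of 45.8 ± 4.61 and 30.6 ± 8.199 TPM (SD, n = 5 each). At both doses these LCO means were within 1 SD of the untreated means.

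The fall ENSDART00000173218.2 had LCO libraries on the opposite side at a lower level. It had 3.57, 2.42, 2.83, 2.36 and 3.35 TPM under Ion, 5.09, 3.24, 7.42, 8.44 and 8.77 TPM at LCO 10 mg/L, 8.001, 5.26, 5.11, 3.65 and 6.35 TPM at LCO 1 mg/L, and 5.00, 3.92, 4.51, 4.67 and 3.62 TPM untreated. Only LCO 10 mg/L replicate 2 lay below all untreated libraries, and on rescaled TPM 0 of the 10 LCO libraries did. On TPM 8 LCO libraries exceeded every untreated one. In ENSDART00000132284.3 the doses parted: it had 2.56, 2.67, 1.86, 1.96 and 2.15 TPM under Ion, 4.17, 1.93, 0.706, 3.39 and 1.56 TPM at LCO 10 mg/L, 3.95, 4.13, 10.1, 5.17 and 6.21 TPM at LCO 1 mg/L, and 2.92, 3.07, 5.30, 4.14 and 5.11 TPM untreated. At 10 mg/L 3 libraries were below all untreated, and at 1 mg/L none was (0 of 5). On rescaled TPM 2 of the 10 LCO libraries were below all untreated. In ENSDART00000110424.4 the gap ran the other way, with 2 LCO 10 mg/L and all 5 LCO 1 mg/L libraries below all untreated.

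Values just inside and just outside the minimum log2 ratio lay close together. The nearest rises inside were ENSDART00000134855.3, with a mean of 2.68 TPM in Ion and 1.89 TPM in untreated libraries, and ENSDART00000115403.4, with 3.39 and 2.39 TPM. Just outside stood ENSDART00000170680.2, with means of 6.44 TPM in Ion and 4.55 TPM in untreated libraries, and ENSDART00000137139.3, with 11.9 and 8.41 TPM. The nearest falls inside were ENSDART00000026879.10, at 1.75 TPM in Ion and 2.47 TPM in untreated libraries, and ENSDART00000162668.2, at 0.847 and 1.20 TPM. Outside were ENSDART00000137147.2, at 3.80 and 5.37 TPM, and ENSDART00000137954.2, at 2.89 and 4.03 TPM.

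The wording of the rule treats LCO 10 mg/L and LCO 1 mg/L alike, although its last condition uses the values of both. The comparison of LCO 10 mg/L with LCO 1 mg/L was therefore tested, with that limit. It was fitted by edgeR's quasi-likelihood test on the rounded estimated counts of all 39355 transcripts that passed the filter on low counts, scaled by TMM, and 217 members (180 rises and 37 falls) were among them. With Benjamini-Hochberg adjustment over all 39355 at 0.05, 0.213% of transcripts were called (84, of which 83 were higher at 10 mg/L) and 0 members were. At an unadjusted p under 0.05 there were 14 members, against 8.33% of all transcripts. They were 9 rises and 3 falls higher at 10 mg/L, as 5.49% of all transcripts were, and 1 rise and 1 fall lower, as 2.83% were. DESeq2 called 1 member, a fall, and 1.27% of all transcripts, and limma-voom called 0 members and 0.0534% of all. The median log2 fold change of 10 over 1 mg/L was 0.06 in the rises (116 of 180 positive, median SE 0.20), 0.21 in the falls (25 of 37 positive, median SE 0.30) and 0.01 over all 39355 transcripts. These medians hold no test, and the choice of members may bear on them. All 5 LCO 10 mg/L libraries were on the Ion side in 3 falls and 6 rises. All 5 LCO 1 mg/L libraries were in 14 falls and 3 rises. The median of the rises ran between -0.05 and 0.19 when 1 library of either dose was left out. It was -0.02 without LCO 10 mg/L replicate 2, 0.11, 0.19, -0.01 and -0.05 without replicate 1, 2, 5 or 6 of LCO 1 mg/L, and 0.18 without the 8 libraries apart. That of the falls was -0.02 without the 8 libraries apart. In that setting LCO 10 mg/L kept only replicate 1, so both of its medians rest on that single library for the dose.

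The smallest adjusted p among members belonged to the fall ENSDART00000112991.4, described here after its values were seen. It had 1.15, 0.591, 1.09, 8.35 and 3.57 TPM at LCO 10 mg/L and 0.524, 0.524, 0.437, 0.780 and 0.819 TPM at LCO 1 mg/L. Its log2 fold change was 2.29 with an SE of 0.52 (edgeR adjusted p = 0.0865), and DESeq2 called it (adjusted p = 0.0024). At 10 mg/L replicates 4 and 6 exceeded every untreated library and the other 3 lay below all of them, and the Ion libraries held 0.469 to 1.36 TPM, against 1.61 to 3.49 TPM in untreated libraries. Among the rises the smallest was that of ENSDART00000193612.1, with a log2 fold change of 0.88 and an SE of 0.26 (edgeR adjusted p = 0.220). For members described above, the log2 fold change was -1.19 with an SE of 0.36 in ENSDART00000132284.3 (edgeR adjusted p = 0.251) and 0.61 with an SE of 0.21 in ENSDART00000113789.2 (edgeR adjusted p = 0.369). A difference between doses was thus not detectable in any single member by edgeR at this number of libraries, which does not show that the doses act alike.

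Set directly against the LCO libraries in the same fit, the members' Ion values are again a description, because Ion values chose them. The median log2 fold change of Ion over LCO 10 mg/L was 0.19 in the rises and -0.37 in the falls, and that of Ion over LCO 1 mg/L was 0.24 in the rises and -0.24 in the falls. Of all 39355 transcripts, 0.17% passed the threshold for Ion over LCO 10 mg/L, and 4 members did. The rise ENSDART00000055380.6 was higher in Ion, as 0.0483% of all were, and the falls ENSDART00000173218.2, ENSDART00000099252.5 and ENSDART00000184049.1 were lower, as 0.122% were. Against LCO 1 mg/L 6.05% of all transcripts passed, and 11 members did, 7 rises higher (4.45% of all) and 4 falls lower (1.6% of all) in Ion. Against untreated 0.0356% passed (0.028% as lower in Ion), and 1 member did, the fall ENSDART00000177924.2. It averaged 6.37 ± 0.522 TPM in Ion, 6.96 ± 1.46 TPM in LCO 10 mg/L, 6.598 ± 0.425 TPM in LCO 1 mg/L and 11.4 ± 2.27 TPM in untreated libraries (SD, n = 5 each), and LCO 10 mg/L replicate 1, at 8.58 TPM against a lowest untreated value of 8.35 TPM, was the 1 LCO library that did not join the Ion side. Its call in that fit was kept without untreated replicate 4 and lost without each other Ion or untreated library.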

How the data were processed

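RNA was sequenced from pools of whole larvae. Per the submitters' processing notes, reads passed FastQC 0.11.5, cutadapt 1.18 and kallisto 0.45.0, with GRCz11 as genome build. The deposited tables list, per library and transcript, an estimated count (expected count) and TPM; TPM recomputed from counts and effective lengths differed by at most 0.00105%. Members and lists were chosen with earlier results of these data known. Members came from TPM, also rescaled by TMM factors. Estimated counts were rounded and fitted in R 4.3.3 with edgeR 4.0.16 (filterByExpr, TMM, all 20 libraries, group only); DESeq2 1.42.0 and limma 3.58.1 were alternatives. The fit was tested on simulated counts drawn independently for each library, without the split on the first component, so that test does not cover it. Named members, by direction, had the largest ratios, the highest levels, the fewest or most LCO libraries on the Ion side, the widest gap between doses, or lay nearest the ratio minimum. Gene lists could not be read without annotation. No library repeated another (0 identical pairs; lowest chi-square per degree of freedom 12.0 over 40 pairs within groups), and 0 members shared rounded counts with another transcript. Depth was 24950529 to 63120039 estimated counts per library.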

Additional observations from a re-analysis of the deposited data

Results flagged for a closer look

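In each group of 5 libraries of the 26 named members, and of the medians by library of the rises and falls (112 groups in all), a library was singled out when its gap to the nearest other exceeded 0.71 of the group's range. With independent normal values this happens in about 1 in 20 groups. That rate need not hold here, since these values chose the members and the groups share libraries. In all, 7 were found. ENSDART00000181922.1 had 2.82 TPM in Ion replicate 6. ENSDART00000113789.2 had 56.4 TPM in LCO 10 mg/L replicate 1. LCO 10 mg/L replicate 2 was low for ENSDART00000168321.2, at 4.96 TPM, and for ENSDART00000143906.3, at 25.2 TPM. That library had a TMM factor of 0.688, and outliers were sought on TPM as deposited, not on rescaled TPM. ENSDART00000133642.4 had 0.744 TPM in LCO 1 mg/L replicate 6, and ENSDART00000110424.4 had 6.47 TPM in LCO 1 mg/L replicate 2. ENSDART00000162668.2 had 1.44 TPM in untreated replicate 4.

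In 2 of the 26 named members every Ion library moved one way from the untreated mean and every LCO 1 mg/L library the other. The rise ENSDART00000168321.2 had log2 ratios to untreated of 0.53 for Ion and -0.27 for LCO 1 mg/L. The fall ENSDART00000099252.5 had -0.54 for Ion and 0.29 for LCO 1 mg/L. These differences were not tested, since the choice of members fixed the side of the Ion libraries. Both transcripts were also among those named for the fewest LCO libraries on the Ion side, which favours this pattern. The share of all members or transcripts with it was not counted.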

How the results depend on the processing

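The number of members depended on the settings of the rule. In place of 181 rises and 37 falls there were 74 and 81 on CPM with TMM, 45 and 12 at a mean TPM minimum of 5, 17 and 12 at a log2 ratio minimum of 1, and 66 and 78 on rescaled TPM. Without the 8 libraries apart there were 178 rises and 79 falls, of which 87 and 19 were among the members. The last 2 settings were chosen after seeing the data. With the limit of 300 members in place, leaving out 1 library gave 144 to 267 rises and 32 to 63 falls. There were 56 falls without untreated replicate 4, 61 without Ion replicate 2 and 63 without Ion replicate 4. The limit was reached in 5 of the settings that left out 1 library (untreated replicate 1 or 2, Ion replicate 1, 2 or 3). Those 5 would have had 371 to 553 members without it, so the libraries are not ranked by these counts. The group medians kept their sign under the settings run, but that of LCO 1 mg/L in the rises fell from 0.37 to 0.01 without the 8 libraries apart. Leave-one-out ranges were 0.18 to 0.32 (rises) and -0.64 to -0.44 (falls) for LCO 10 mg/L, and 0.20 to 0.47 and -0.57 to -0.41 for LCO 1 mg/L.

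For LCO 10 over 1 mg/L the 84 calls became 45 with no count filter, 499 with DESeq2, 21 with limma-voom, 0 with only these groups fitted (2505 at an unadjusted p under 0.05), 7 without the libraries apart, 3 without LCO 10 mg/L replicates 2 and 3, and 1 to 226 leaving out 1 library. Leaving out replicate 2, 3, 4 or 6 of LCO 10 mg/L left 7, 2, 2 or 159 calls. Leaving out replicate 1, 2, 3, 5 or 6 of LCO 1 mg/L left 15, 11, 226, 21 or 1. Members called stayed at 0, except 1 with DESeq2. For Ion over untreated the 14 calls became 428 with DESeq2, 29 with limma-voom, 0 with only these groups fitted (5197 unadjusted), 3 without the libraries apart and 0 to 15 leaving out 1 library. The 1 member called became 2 with RLE factors (0.0432% of all transcripts called), 42 with DESeq2 (1.09%), 2 with limma-voom (0.0737%), 0 with only these groups fitted, 0 without the libraries apart, 0 without LCO 10 mg/L replicates 2 and 3, and 0 to 1 leaving out 1 library. The causes were not tested. Without the libraries apart, LCO 10 mg/L kept 1 library, assumed to vary like the other groups.

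Same-numbered libraries showed little likeness, with correlations of their deviations of -0.20 to 0.17 between doses and -0.02 to 0.02 between Ion and untreated. The same number was the best match for replicate 2 between doses and for replicate 4 between Ion and untreated. The labels do not say whether pools shared parents or tanks, so this check cannot show that they were unpaired. With the replicate block, the counts were 21 calls between doses with 0 members, and 6 calls for Ion over untreated with 0 members.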
